A study of Mus musculus with 8 samples.

Results

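Adipogenic induction was examined in hanging-drop spheroids of 3T3-L1, a mouse embryo fibroblast line that can turn into fat cells in culture. The comparison sets 2 induced against 2 uninduced spheroid libraries, and these 4 of the 8 RNA-seq libraries of the series were chosen by their labelled culture format and treatment alone. Each spheroid was seeded with about 20000 cells in a drop of 28 µL and taken on day 7. All cultures had high-glucose DMEM with 10% calf serum, biotin, pantothenate, antibiotics and methylcellulose. Induced spheroids also received the glucocorticoid dexamethasone at 250 nM and the thyroid hormone triiodothyronine at 10 nM in the first 2 days. The PPARγ agonist troglitazone at 10 µM and insulin at 1 µg/ml were added daily for 7 days. Uninduced spheroids received none of the 4 agents. The other 4 libraries come from flat cultures without and with the same agents, and they enter here through the shared estimate of spread and 1 closing comparison. The labels give the cell type as preadipocyte and speak of samples prepared independently, without saying whether they were separate cultures or how many spheroids made a library. The p-values therefore measure the spread between these samples, which may be technical.

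Fat cell development runs through a cascade of transcription factors in which C/EBPβ acts early and PPARγ and C/EBPα then switch on the genes of the mature adipocyte. Those genes let the cell take up fatty acids, join them to glycerol as triglyceride, wrap the fat in protein-coated droplets, answer insulin and secrete hormones such as adiponectin. Preadipocytes in turn make much extracellular matrix, and their inflammatory secretion is restrained by glucocorticoids and PPARγ ligands. In bulk RNA, fewer cells of a type and less RNA per cell cannot be told apart.

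The starts of 5 genes are shown because they stand for the 3 patterns described here: Plin1 was higher in both induced libraries, Saa3 was lower in both, and Ifit1, Ifit3 and Rsad2 were higher in one and lower in the other. Each line gives the 250 bases before an annotated RefSeq transcript start (GRCm38.p6), 5′ to 3′ on the strand of the gene. Plin1 lies at chr7:79732777-79733026 (minus strand), Saa3 at chr7:46715677-46715926 (minus strand), Ifit1 at chr19:34640639-34640888 (plus strand), Ifit3 at chr19:34583279-34583528 (plus strand) and Rsad2 at chr12:26456453-26456702 (minus strand). Capitals mark matches on either strand to a C/EBP motif, TTGCNNAA, or to the core of the interferon-stimulated response element, written here as GAAA, any 2 bases and GAAA again.
Plin1: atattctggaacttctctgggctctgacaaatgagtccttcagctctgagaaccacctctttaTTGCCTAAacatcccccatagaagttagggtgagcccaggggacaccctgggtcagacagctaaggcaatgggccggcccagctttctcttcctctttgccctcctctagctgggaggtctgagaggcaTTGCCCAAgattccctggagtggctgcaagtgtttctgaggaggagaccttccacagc
Saa3: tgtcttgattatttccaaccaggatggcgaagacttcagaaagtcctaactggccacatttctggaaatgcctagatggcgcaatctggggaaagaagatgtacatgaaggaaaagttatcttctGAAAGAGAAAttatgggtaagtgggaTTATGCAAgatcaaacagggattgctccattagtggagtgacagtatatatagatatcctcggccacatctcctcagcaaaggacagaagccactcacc
Ifit1: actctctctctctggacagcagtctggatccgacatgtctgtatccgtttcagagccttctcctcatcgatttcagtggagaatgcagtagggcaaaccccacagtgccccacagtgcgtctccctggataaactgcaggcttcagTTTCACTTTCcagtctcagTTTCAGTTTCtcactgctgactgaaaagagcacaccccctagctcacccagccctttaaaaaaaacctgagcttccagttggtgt
Ifit3: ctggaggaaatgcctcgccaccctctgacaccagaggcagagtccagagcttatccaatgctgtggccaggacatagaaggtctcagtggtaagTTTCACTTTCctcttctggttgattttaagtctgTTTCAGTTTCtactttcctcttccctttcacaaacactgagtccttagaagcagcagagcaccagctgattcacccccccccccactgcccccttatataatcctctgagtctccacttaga
Rsad2: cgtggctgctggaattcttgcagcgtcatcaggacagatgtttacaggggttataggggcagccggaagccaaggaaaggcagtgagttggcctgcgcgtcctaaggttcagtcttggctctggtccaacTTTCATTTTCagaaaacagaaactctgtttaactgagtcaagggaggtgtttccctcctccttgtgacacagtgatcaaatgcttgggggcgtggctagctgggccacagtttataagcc
Plin1 held 2 C/EBP matches, Saa3 held 1 match of each kind, Ifit1 and Ifit3 held 2 interferon element matches each, and Rsad2 held 1. No match of one motif overlapped a match of the other in these windows. Over all 32851 mouse windows of 300 bases, which add 50 bases after the start, 3.44% held the interferon element core and 10.8% the C/EBP letters. In the 13304 windows of genes tested here these shares were 3.11% and 8.37%. Of 28 windows of interferon-response genes, 14 (50%) held the interferon element core. The C/EBP letters were in 11 of 42 windows (26.2%) of genes called lower and in 5 of 68 windows (7.35%) of genes called higher. A match is a description of letters and not a shown binding site.

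The uninduced spheroid libraries held 12562723 and 12981380 counts, and induced replicates 1 and 2 held 14256216 and 16388954. Levels are CPM, which scale each count to its library's total with edgeR's TMM factors, and 1 CPM stood for 12.6 to 16.4 counts before that scaling. The biological coefficient of variation, the spread between replicates beyond counting error, was 0.327 in induced and 0.111 in uninduced spheroids, against 0.0469 and 0.0473 in the flat groups. Differences of each induced library from the uninduced mean correlated across 15255 genes at a Pearson r of 0.24. Both differences use the same uninduced libraries, and genes are not independent replicates. The noncoding RNA Gm26917, which overlaps ribosomal RNA sequence, stood at 1202 and 1213 CPM in uninduced libraries and at 363 and 6396 CPM in induced replicates 1 and 2. The pair of induced libraries is therefore given singly for each gene described.

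With induction, named genes of fat storage and insulin response rose, and named acute-phase, chemokine and protease genes fell. Of 15255 genes tested, 89 (0.583%) were called higher and 50 (0.328%) lower, which is 0.911% in all. Calls needed a change of at least 2-fold with an adjusted p under 0.05 in edgeR's quasi-likelihood test. In that test 1896 of the 15255 genes had an unadjusted p under 0.05, against which the list counts below can be read. The libraries of the groups did not overlap for any of the 139 called genes. Over all genes, both induced libraries lay above both uninduced ones for 18% and below them for 14.6%. Of the called genes, 76 of the 89 and 42 of the 50 moved at least 2-fold in each induced library. The calls were made on these same libraries, so neither count is separate support. For comparison, 180 genes (1.18%) lay at least 2-fold above the uninduced mean in each induced library and 160 (1.05%) at least 2-fold below it.

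The calls borrow precision from the flat cultures. In the 4 spheroid libraries alone edgeR called 0 of 14708 genes, with 885 at an unadjusted p under 0.05 and a lowest adjusted p of 0.0642. DESeq2 on all 8 libraries called 131 higher and 110 lower, and limma-voom with a weight per group called 59 and 29. Without induced replicate 1, edgeR called 453 higher and 772 lower genes, and without induced replicate 2 it called 292 and 199. Without uninduced replicate 1 it called 13 and 11, and without uninduced replicate 2 it called 17 and 12. Without either flat uninduced library it called 37 and 14. Without flat induced replicate 1 or 2 it called 29 or 28 higher and 12 lower. All 139 called genes kept their direction in every one of these fits in which they were tested. Their groups do not overlap, so leaving out 1 library could hardly turn a direction, and this is no separate support. Of the 53 called genes that a naming rule selects, 12 kept their call in all 14 of the alternatives other than the 4-library fit: Plin1, Cd36, Fabp4, Fabp5, Ephx2, Pcx, Aldh1a1, Fkbp5, Tsc22d3, Saa3, Grem1 and Timp1. The other 41 lost it without at least 1 library, always including an uninduced spheroid library, and for these the highest adjusted p with 1 library left out is given below. Limma-voom kept 33 of the 53 calls, and those it lost include Cebpa, Ppargc1b, Cidec, G0s2, Acss2, Rarres2, Slc2a4, Saa1, Cxcl5, Lif, Slpi, Spink5, Tnip3, Mmp8, Col8a1, Gfra1, Megf10, Epb41l4a and Pi16. With no low-count filter, which tests more genes, Adipoq (adjusted p = 0.133) and Gpd1 (0.11) lost theirs.

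**Figure D1:**
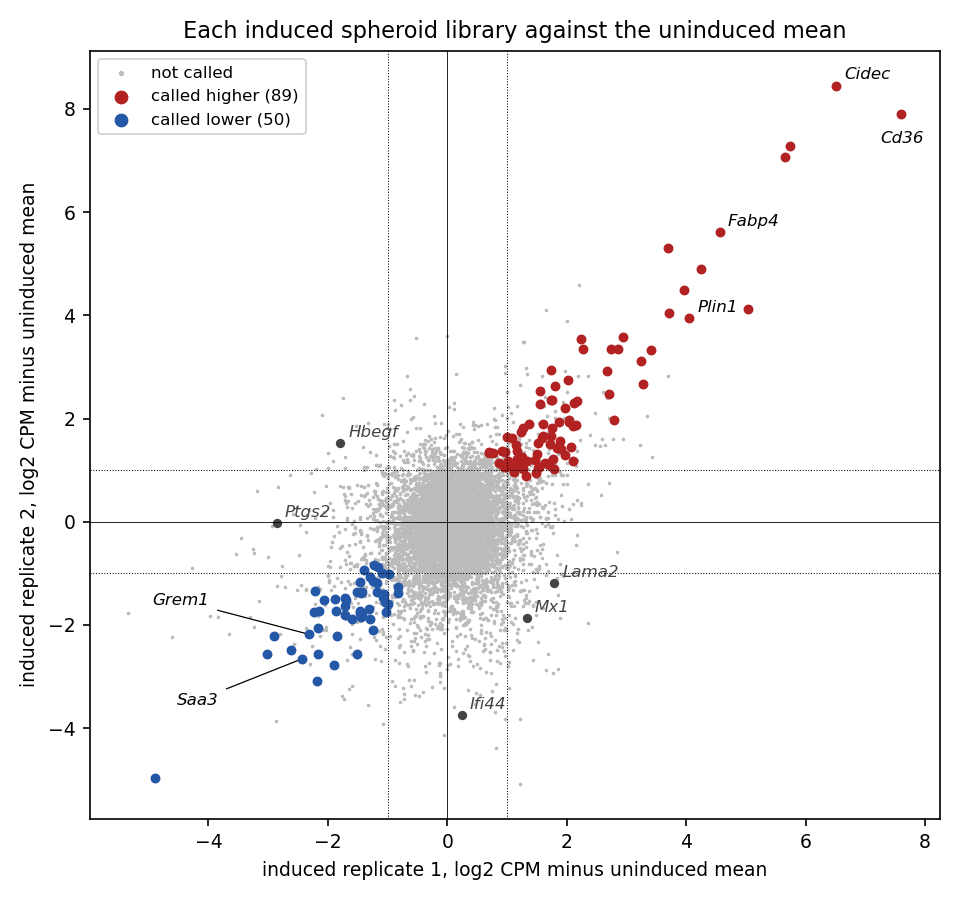
Each point is 1 of 15255 genes, with its log2 CPM in induced replicate 1 (x axis) and replicate 2 (y axis) minus the uninduced mean; 89 genes called higher are red and 50 called lower are blue, and dotted lines mark a 2-fold change. The called genes lie along the diagonal, a place that calling on these same libraries favours, while Mx1 (1.33 and -1.87) and Hbegf (-1.79 and 1.52) lie off it.

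Among the transcription factors, Cebpa, Nr1h3 and Ppargc1b rose and Pparg itself did not pass the test. Cebpa, which drives terminal adipocyte differentiation, measured 13.2 and 12.1 CPM without and 30.4 and 26.5 CPM with induction (log2 fold change 1.16 ± 0.13, SE, adjusted p = 0.00907). Nr1h3, the liver X receptor α, went from 16.3 and 14.5 to 31.3 and 34.8 CPM (1.10 ± 0.14, adjusted p = 0.0144). In both genes the 2 induced libraries were close to each other and above both uninduced libraries. Ppargc1b, a coactivator of mitochondrial genes, measured 1.18 and 1.60 CPM without and 5.48 and 4.33 CPM with induction (1.81 ± 0.29, adjusted p = 0.0316). Pparg, the receptor that troglitazone binds, stood at 28.9 and 34.3 CPM without and 40.6 and 38.9 CPM with induction (log2 fold change 0.33 ± 0.12, adjusted p = 0.317). Its induced libraries also lay above its uninduced libraries, by less than the fold required. Cebpb, an early factor of the cascade, measured 255 and 320.4 CPM without and 188 and 264 CPM with induction (adjusted p = 0.714), and induced replicate 2 fell between the uninduced values. Of the 17 factors listed 16 were tested, 3 were called higher, and the median log2 fold change was 0.35 against 0.04 over all genes. Both induced libraries lay above both uninduced libraries for 10 of the 16, where 18% of all genes did so. With 1 uninduced spheroid library left out, the adjusted p reached 0.104 for Cebpa, 0.138 for Nr1h3 and 0.262 for Ppargc1b.

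Of the genes of the lipid droplet, 4 rose. Plin1 (perilipin 1, ENSMUSG00000030546, chr7:79720218-79732903), which coats the droplet and controls access of lipases, measured 5.83 and 8.07 CPM in uninduced spheroids and 116 and 107 CPM in induced replicates 1 and 2. As a ratio the induced libraries were closer to each other than the uninduced ones, and the log2 fold change was 4.00 ± 0.18 (adjusted p = 0.000398; 0.0642 in the 4 spheroid libraries alone and 2.41e-07 in limma-voom). Cidec (ENSMUSG00000030278, chr6:113424634-113435760), which fuses small droplets into large ones, had 4 and 1 counts without induction and 401 and 1787 counts with it, or 27.1 and 105 CPM. Its log2 fold change was 8.43 ± 0.93 (adjusted p = 0.0092), and induced replicate 2 stood well above replicate 1. The perilipin Plin4 went from 143 and 161 to 519 and 352 CPM (1.52 ± 0.19, adjusted p = 0.0138), with replicate 1 the higher. Fitm2, which helps droplets bud from the endoplasmic reticulum, went from 38.1 and 51.0 to 88.1 and 138 CPM (1.34 ± 0.22, adjusted p = 0.0338). Plin2, the perilipin found in most cells, stood at 255 and 297 CPM without and 352 and 743 CPM with induction and was not called (adjusted p = 0.187). Of the 14 symbols in the droplet list 10 were tested, with a median of 1.16. The list also holds the receptor gene Hcar1, which does not encode a droplet protein, and its older symbol Gpr81, which was not tested. Hcar1 had 0 counts in uninduced spheroids and 3 and 4 counts in induced replicates 1 and 2. With Hcar1 set to its lower bound the median was 0.99. The highest adjusted p without 1 library was 0.169 for Plin4, 0.157 for Cidec and 0.299 for Fitm2, whose change was 0.98 (log2), just under 2-fold, without induced replicate 2. In limma-voom Cidec had an adjusted p of 0.0969.

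Of the genes of fatty acid uptake, binding and activation, 4 rose. Cd36 (ENSMUSG00000002944, chr5:17781690-17888801), the membrane transporter of long-chain fatty acids, measured 1.25 and 5.02 CPM without and 518 and 638 CPM with induction. Against the uninduced mean the log2 differences were 7.60 and 7.90, and the fitted change was 7.52 ± 0.51 (adjusted p = 0.00127). Fabp4 (ENSMUSG00000062515, chr3:10204088-10208576), the adipocyte fatty acid carrier, went from 38.1 and 33.2 to 842 and 1743 CPM (5.18 ± 0.36, adjusted p = 0.00127). Replicate 2 held more Fabp4 than replicate 1, and both were far above the uninduced libraries. The related carrier Fabp5 went from 34.9 and 32.5 to 147 and 166 CPM (2.21 ± 0.12, adjusted p = 0.000455). Acsl1, which activates fatty acids for storage, went from 25.3 and 29.7 to 91.3 and 140.3 CPM (2.07 ± 0.20, adjusted p = 0.00543, and 0.119 without uninduced replicate 1). Lipoprotein lipase (Lpl), which frees fatty acids from circulating lipoproteins, was already abundant in preadipocyte spheroids, at 987 and 1342 CPM. In induced spheroids it stood at 2506 and 1881 CPM and did not pass the test (0.91 ± 0.20, adjusted p = 0.0762). The other 9 of the 13 tested (15 symbols were listed) were not called, and the median of the 13 was 0.37.

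Assembly and breakdown of triglyceride moved less evenly. Gpd1, which supplies glycerol 3-phosphate, went from 2.06 and 1.38 to 5.96 and 13.9 CPM (2.53 ± 0.43, adjusted p = 0.039) and was the only called gene of 12 tested in its list (median 0.58). Agpat2, an acyltransferase of triglyceride assembly, stood at 29.4 and 33.5 CPM without and 49.5 and 116 CPM with induction (adjusted p = 0.109). Dgat1, which completes the triglyceride, stood at 58.0 and 62.0 CPM without and 74.2 and 91.0 CPM with induction (adjusted p = 0.143). Both induced libraries exceeded both uninduced libraries for 9 of these 12 genes, where 18% of all genes did so. G0s2, an inhibitor of the lipase ATGL, had 0.221 and 0.654 CPM without and 6.84 and 8.66 CPM with induction (4.12 ± 0.54, adjusted p = 0.0162). ATGL itself, encoded by Pnpla2, measured 17.7 and 23.8 CPM in uninduced spheroids and 52.0 and 151 CPM in induced replicates 1 and 2. The groups did not overlap, but the induced libraries were far apart and Pnpla2 was not called (2.29 ± 0.44, adjusted p = 0.0539). Hormone-sensitive lipase, Lipe, stood at 34.5 and 28.9 CPM without and 45.1 and 76.5 CPM with induction (adjusted p = 0.114). Of 9 lipolysis genes tested 1 was called, with a median of 0.94. The adjusted p reached 0.293 for Gpd1 and 0.197 for G0s2 without 1 uninduced spheroid library.

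Fatty acid synthesis had 2 called genes of 14 tested and a median of 0.17. Thrsp, a lipogenic protein regulated by thyroid hormone, had 1 count over both uninduced libraries and 37 and 62 counts in induced replicates 1 and 2. The ratio of the sums, scaled for depth, is 84.9, with a counting interval of 14.9 to 3390 (95%), and the adjusted p was 0.00543. Acss2, which makes acetyl-CoA from acetate, went from 15.3 and 22.8 to 37.6 and 40.0 CPM (1.03 ± 0.19, adjusted p = 0.0497). Scd1, the desaturase that makes monounsaturated fatty acids, stood at 117 and 112 CPM without and 161 and 149 CPM with induction and was not called (0.43 ± 0.10, adjusted p = 0.1). Without uninduced replicate 1 the adjusted p was 0.063 for Thrsp and 0.238 for Acss2, and Acss2 also lost its call with RLE scaling and, at under 2-fold, without induced replicate 2.

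Among secreted adipocyte proteins Adipoq and Rarres2 were called higher. Adipoq, which encodes the hormone adiponectin, had 0 counts in each uninduced library and 105 and 360 counts in induced replicates 1 and 2, or 7.11 and 21.1 CPM. Against a floor of 3 counts over the uninduced group it was at least 133-fold higher (adjusted p = 0.0178). Taken singly, replicate 1 was at least 64.7-fold and replicate 2 at least 192-fold higher. Rarres2, which encodes chemerin, went from 55.6 and 66.8 to 148 and 136 CPM (1.21 ± 0.15, adjusted p = 0.0138). Angiotensinogen (Agt) stood at 244 and 309 CPM without and 522 and 552 CPM with induction. It passed the p threshold but not the fold threshold (0.96 ± 0.13, adjusted p = 0.0186). Cfd, which encodes adipsin, had 0 counts without induction and 4 and 14 counts with it, at least 5.14-fold higher but not called (adjusted p = 0.162). Leptin (Lep) had 0 counts in all 4 spheroid libraries. The list had 12 of 16 members tested and a median of 0.81, the same with Adipoq and Cfd set to their bounds. The adjusted p without uninduced replicate 1 was 0.158 for Adipoq and 0.158 for Rarres2.

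In the list for glucose uptake and insulin signalling, 4 of 16 genes tested rose, and 3 are described. Slc2a4, the insulin-responsive glucose transporter GLUT4, had 2 and 1 counts without induction and 24 and 40 counts with it. The ratio was 18.3 with a counting interval of 5.98 to 91 (adjusted p = 0.0178). Trarg1, a regulator of GLUT4 trafficking, went from 0.516 and 1.38 to 32.3 and 17.2 CPM (4.68 ± 0.55, adjusted p = 0.0126). The caveolar coat protein gene Cavin2 went from 3.98 and 6.69 to 18.5 and 32.7 CPM (2.26 ± 0.31, adjusted p = 0.0184). In each of these 3 genes the induced libraries lay above the uninduced ones, with replicate 1 the higher for Trarg1 and replicate 2 the higher for Slc2a4 and Cavin2. The insulin receptor, Insr, stood at 79.3 and 66.2 CPM without and 80.5 and 47.2 CPM with induction (adjusted p = 0.823), so the groups overlapped. The median of the 16 was 0.62, and both induced libraries exceeded both uninduced libraries for 11 of them, as for 18% of all genes. Without uninduced replicate 1 the adjusted p was 0.165 for Slc2a4, 0.158 for Trarg1 and 0.197 for Cavin2, and Slc2a4 had 0.118 in limma-voom.

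**Figure D2:**
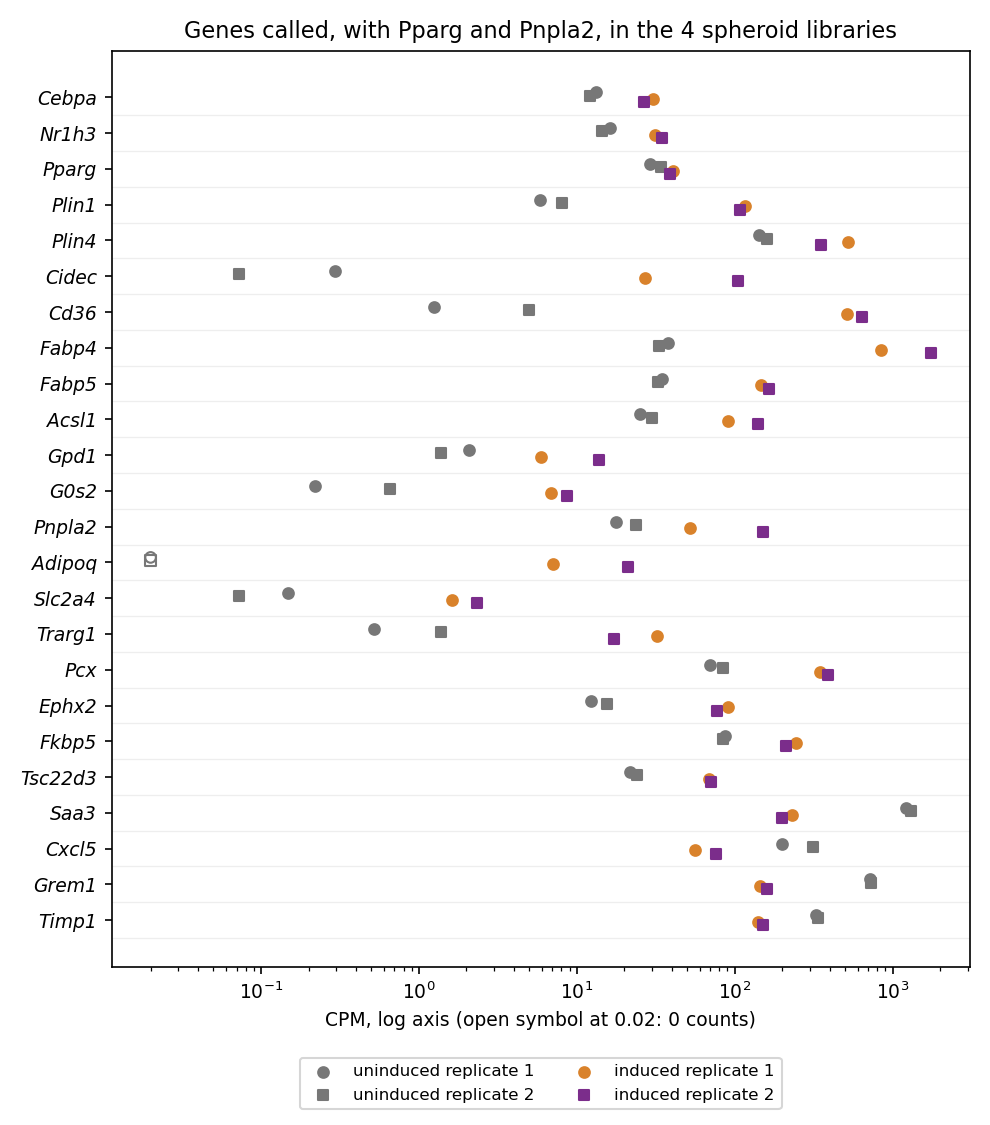
CPM (log axis) of 24 genes in the 2 uninduced (grey) and 2 induced (orange and purple) spheroid libraries, with open symbols for 0 counts. Plin1 sits at 5.83 and 8.07 without and 116 and 107 with induction and Saa3 at 1212 and 1309 without and 232 and 199 with induction, while the Pparg values nearly meet.

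Of the genes of mitochondrial fuel oxidation few were called, all of them higher. Pyruvate carboxylase, Pcx, which feeds oxaloacetate to the citrate cycle and to lipogenesis, went from 69.3 and 84.8 to 345 and 389.5 CPM (2.25 ± 0.13, adjusted p = 0.000558). Both induced libraries were alike and above both uninduced ones. Idh3a, a subunit of the cycle's NAD-linked isocitrate dehydrogenase, went from 67.2 and 68.1 to 128 and 177 CPM (1.17 ± 0.16, adjusted p = 0.0176). In the citrate cycle list 2 of 18 genes were called higher, with a median of 0.51. For 17 of 18 both induced libraries exceeded both uninduced ones, as for 18% of all genes. Of 23 fatty acid oxidation genes tested 3 were called higher, with a median of 0.59, and 18 had both induced libraries above both uninduced ones. Acadm, the medium-chain acyl-CoA dehydrogenase, went from 55.3 and 59.4 to 112 and 148 CPM (1.18 ± 0.14, adjusted p = 0.0137). The peroxisomal genes Cat and Pex11a were the other 2. Cat, catalase, went from 77.4 and 99.0 to 173 and 190.4 CPM (1.04 ± 0.14, adjusted p = 0.0174). Pex11a, a factor of peroxisome division, went from 35.3 and 42.0 to 75.9 and 80.5 CPM (1.02 ± 0.13, adjusted p = 0.0149). The respiratory chain list had 0 calls of 28 in edgeR, DESeq2 and limma-voom. An unadjusted p under 0.05 in edgeR was found for 19 of the 28, and for 1896 of all 15255 genes. The list had a median of 0.47, and both induced libraries exceeded both uninduced ones for 23 of its genes. Replicate 2 was above replicate 1 for all 28, as for 7501 of all 15255 genes. Cytochrome c (Cycs) showed this at 84.1 and 80.7 CPM without and 97.4 and 223 CPM with induction, and the ATP synthase subunit Atp5b at 755 and 822 CPM without and 1001 and 1751 CPM with induction. With uninduced replicate 1 left out the adjusted p was 0.205 for Idh3a, 0.168 for Acadm, 0.157 for Cat and 0.158 for Pex11a. Without induced replicate 2 these 4 genes changed by 0.91 to 0.97 (log2) and so were under 2-fold, and Pex11a was at the 2-fold limit with RLE scaling and DESeq2.

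Of 14 glucocorticoid targets tested 3 were called higher and 0 lower in edgeR on day 7, with a median of 0.27, and the labels place dexamethasone in the first 2 days. DESeq2 called 3 higher and 2 lower, and limma-voom 3 higher and 0 lower. Fkbp5, a cochaperone of the glucocorticoid receptor, went from 87.1 and 84.1 to 243 and 213 CPM (1.41 ± 0.11, adjusted p = 0.00242). Tsc22d3, the leucine zipper protein GILZ, went from 21.6 and 24.0 to 68.4 and 70.9 CPM (1.61 ± 0.10, adjusted p = 0.000979). The transcription factor Zbtb16 went from 11.4 and 11.3 to 37.2 and 25.1 CPM (1.45 ± 0.20, adjusted p = 0.0205, and 0.217 without uninduced replicate 1). In all 3 genes the induced libraries lay above the uninduced ones and the replicates of Tsc22d3 were the closest. The clock gene Per1 stood at 45.9 and 47.3 CPM without and 74.7 and 66.0 CPM with induction (adjusted p = 0.053), and the metallothionein Mt1 at 251 and 305 CPM without and 282 and 315 CPM with induction (adjusted p = 0.827). Of 7 thyroid hormone targets tested Thrsp alone was called, and the median was -0.11.

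Ephx2, an epoxide hydrolase of lipid mediators, also rose, from 12.4 and 15.5 to 90.8 and 77.5 CPM (2.59 ± 0.15, adjusted p = 0.000455). Ltc4s, the leukotriene C4 synthase, went from 1.11 and 2.33 to 6.97 and 11.6 CPM (2.43 ± 0.38, adjusted p = 0.0302). Sparcl1, a matrix-associated glycoprotein, went from 33.7 and 53.5 to 151 and 115 CPM (1.61 ± 0.22, adjusted p = 0.0184). Both induced libraries were above both uninduced libraries in each. Without uninduced replicate 1 the adjusted p was 0.222 for Ltc4s and 0.136 for Sparcl1.

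Acute-phase and inflammatory genes were among the largest decreases. Saa3 (ENSMUSG00000040026, chr7:46711998-46715700), serum amyloid A3, an acute-phase protein of fat tissue and macrophages, measured 1212 and 1309 CPM in uninduced spheroids and 232 and 199 CPM in induced replicates 1 and 2. Neither induced library came near the uninduced values, and the log2 fold change was -2.55 ± 0.13 (adjusted p = 0.000421). Its relative Saa1 went from 5.01 and 6.18 to 1.42 and 1.58 CPM (-1.89 ± 0.31, adjusted p = 0.0322), a value that is uncertain because Saa1 and Saa2 are nearly identical in sequence. Lbp, which binds bacterial lipopolysaccharide, went from 29.4 and 35.7 to 8.66 and 4.62 CPM (-2.30 ± 0.30, adjusted p = 0.0161). Cxcl5, a neutrophil-attracting chemokine, went from 198 and 314 to 55.9 and 75.8 CPM (-1.96 ± 0.23, adjusted p = 0.0126). The cytokine gene Lif went from 8.41 and 8.94 to 3.11 and 3.22 CPM (-1.45 ± 0.24, adjusted p = 0.0324). In all 5 genes both induced libraries were below both uninduced ones. Of the other large decreases, Slpi, a secreted leukocyte protease inhibitor, went from 12.4 and 11.2 to 2.50 and 1.87 CPM (-2.43 ± 0.24, adjusted p = 0.00543). Spink5, a serine protease inhibitor, went from 15.2 and 20.8 to 3.79 and 1.99 CPM (-2.64 ± 0.40, adjusted p = 0.0268). Tnip3, which restrains NF-κB signalling, went from 7.45 and 8.73 to 2.37 and 2.22 CPM (-1.81 ± 0.25, adjusted p = 0.02). These 3 genes also had both induced libraries below both uninduced ones. The chemokine and inflammatory list had 3 of 19 tested genes called, each lower, and its median was -0.82, with -1.13 in induced replicate 1 and -1.07 in replicate 2. For 12 of the 19 both induced libraries lay below both uninduced ones, as for 14.6% of all genes. Not all members moved so: Ccl2, a monocyte attractant, stood at 210.1 and 208 CPM without and 63.5 and 189 CPM with induction, so that replicate 1 alone was far below the uninduced libraries (adjusted p = 0.553). With 1 uninduced spheroid library left out the adjusted p was 0.0616 for Cxcl5, 0.0733 for Slpi, 0.136 for Lbp, 0.174 for Tnip3, 0.211 for Spink5, 0.234 for Saa1 and 0.238 for Lif.

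Several of these genes are also made by macrophages. The summed level of 13 macrophage markers was 67.0 and 63.1 CPM in uninduced spheroids and 29.6 and 54.4 CPM in induced replicates 1 and 2. Among these markers Adgre1, Ptprc, Tyrobp, C1qa, C1qb and C1qc had 0 counts in all 4 libraries, but others were detected. Cd14 had 590 and 648 counts without and 212 and 488 counts with induction. Csf1r had 229 and 159 counts without and 145 and 240 counts with induction. Cd68 had 53 and 37 counts without and 51 and 181 counts with induction, so it was highest in induced replicate 2. Lyz2, Aif1 and Mrc1 were detected at lower counts. Summed endothelial markers were 30.4 and 30.9 CPM without and 21.4 and 21.3 CPM with induction, with Tie1 and Erg at 0. Skeletal muscle markers summed to 3.45 to 7.45 CPM over the 4 libraries with Myf5, Myod1 and Myog at 0. Cartilage and bone markers summed to 2119 and 1322 CPM without and 1072 and 789.9 CPM with induction, nearly all of it Spp1, and Mepe and Bglap2 were at 0. Their part in the results was not tested.

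Matrix proteases, a protease inhibitor and a BMP antagonist were among the decreases. Grem1 (ENSMUSG00000074934, chr2:113746164-113758646), gremlin 1, a secreted antagonist of bone morphogenetic proteins, measured 719.8 and 734 CPM without and 145 and 160 CPM with induction. All 4 values sat in 2 tight pairs, and the log2 fold change was -2.25 ± 0.11 (adjusted p = 0.000398). Timp1, an inhibitor of matrix metalloproteinases, went from 327 and 339 to 141 and 151 CPM (-1.19 ± 0.10, adjusted p = 0.00258). Timp1 lies inside Syn1 on the opposite strand, and the strand setting of the counting is not given in the sources used here. Mmp8, a collagenase, went from 11.5 and 21.2 to 2.44 and 2.69 CPM (-2.67 ± 0.32, adjusted p = 0.0131). Mmp11, stromelysin 3, went from 211 and 274 to 114 and 87.3 CPM (-1.27 ± 0.17, adjusted p = 0.0176). Of 20 remodelling genes tested 2 were called lower, with a median of -0.55. The largest decreases also held Gfra1, Megf10 and Epb41l4a. Gfra1, a receptor for GDNF, went from 122 and 132 counts to 47 and 25 counts, or 3.18 and 1.46 CPM with induction (-2.01 ± 0.36, adjusted p = 0.0469). Megf10, an engulfment receptor, went from 30.8 and 16.4 to 4.87 and 5.33 CPM (-2.20 ± 0.33, adjusted p = 0.0258). Epb41l4a, a band 4.1 protein, went from 10.3 and 13.8 to 2.44 and 3.45 CPM (-2.03 ± 0.25, adjusted p = 0.0144). In each of the 3 both induced libraries lay below both uninduced ones. With 1 uninduced spheroid library left out the adjusted p was 0.0624 for Mmp8, 0.126 for Mmp11, 0.263 for Gfra1, 0.165 for Megf10 and 0.114 for Epb41l4a.

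Of 17 preadipocyte and fibroblast genes tested, 1 was called, in the lower direction. It was Pi16, a marker of fibroblast progenitors, going from 13 and 11.4 to 4.33 and 3.57 CPM (-1.63 ± 0.22, adjusted p = 0.0184, and 0.192 without uninduced replicate 1). Dlk1, the preadipocyte factor that holds back differentiation, stood at 754 and 734 CPM without and 663 and 265 CPM with induction (adjusted p = 0.506), so replicate 1 stayed near the uninduced level and replicate 2 was far below it. Pdgfra, a receptor of fat progenitors, stood at 833 and 703 CPM without and 621 and 398 CPM with induction (adjusted p = 0.263). The list had a median of -0.31, and 10 of the 17 were below both uninduced libraries in both induced libraries, as were 14.6% of all genes.

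The induced libraries parted most on interferon-response genes. Ifit1, an interferon-induced protein that binds viral RNA, measured 53.2 and 59.1 CPM without induction, 97.8 CPM in induced replicate 1 and 11.3 CPM in replicate 2. Ifit3, its partner, measured 55.1 and 76.2 CPM, then 118 and 12.2 CPM, with some of its reads uncertain because Ifit3b is a close copy. Rsad2, the antiviral enzyme viperin, measured 18.1 and 20.3 CPM, then 36.0 and 3.45 CPM. In each the first induced library was above and the second below both uninduced libraries, which were close to each other. The dynamin-like GTPase Mx1 did the same, at 24.0 and 29.7 CPM without and 67.5 and 7.20 CPM with induction. Ifi44 stood at 22.0 and 30.9 CPM without induction, and induced replicates 1 and 2 held 30.7 and 1.81 CPM, so replicate 1 lay within the uninduced range. Of 31 interferon genes tested 0 were called in edgeR, DESeq2 or limma-voom and 0 had an unadjusted p under 0.05 in edgeR, and the list medians were 0.51 in replicate 1, -1.53 in replicate 2 and -0.10 in the fit over both. For 25 of the 31 replicate 1 was above and replicate 2 below both uninduced libraries, as for 17.2% of all genes. Replicate 2 was at least 2-fold below replicate 1 for 24 of them, as for 9.69% of all genes. The list is not uniform: B2m (1138 and 1290.4 CPM without and 1037 and 1166 CPM with induction) and H2-D1 (799.8 and 865 CPM without and 720.3 and 808 CPM with induction), which present antigen, changed little in either induced library. These counts describe 2 libraries and carry no test.

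Collagen and basement membrane genes split the same way. Col1a1, the main chain of type I collagen, measured 2966 and 3823 CPM without induction and 4580.3 and 1184 CPM in induced replicates 1 and 2. Col6a3, of type VI collagen, measured 2571 and 2082 CPM without and 5554 and 1485 CPM with induction. In both, replicate 1 was above and replicate 2 below the uninduced libraries. Of 20 collagens 1 was called lower, Col8a1, a short-chain collagen (3.24 and 3.13 CPM without and 1.22 and 0.761 CPM with induction, adjusted p = 0.0497, and 0.281 without uninduced replicate 1). The list medians were 0.50 in replicate 1 and -0.73 in replicate 2. Above both uninduced libraries in the first and below both in the second lay 15 of 20, as did 17.2% of all genes. Lama2, a laminin chain, measured 12.9 and 7.85 CPM without and 35.1 and 4.33 CPM with induction, and the linker protein Nid2 52.2 and 39.3 CPM without and 129 and 18.7 CPM with induction. Of 11 basement membrane genes 9 followed this order and Sparcl1 was called higher. Fibronectin differed in form: Fn1 stood at 2546 and 2121 CPM without and 1848 and 506 CPM with induction, already lower in replicate 1. Its log2 fold change was -0.99 ± 0.49 (adjusted p = 0.483), and that of Col1a1 was -0.24 ± 0.51 (adjusted p = 0.917). With induced replicate 2 left out, Col1a1 was higher by 0.43 (adjusted p = 0.0366, under 2-fold).

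**Figure D3:**
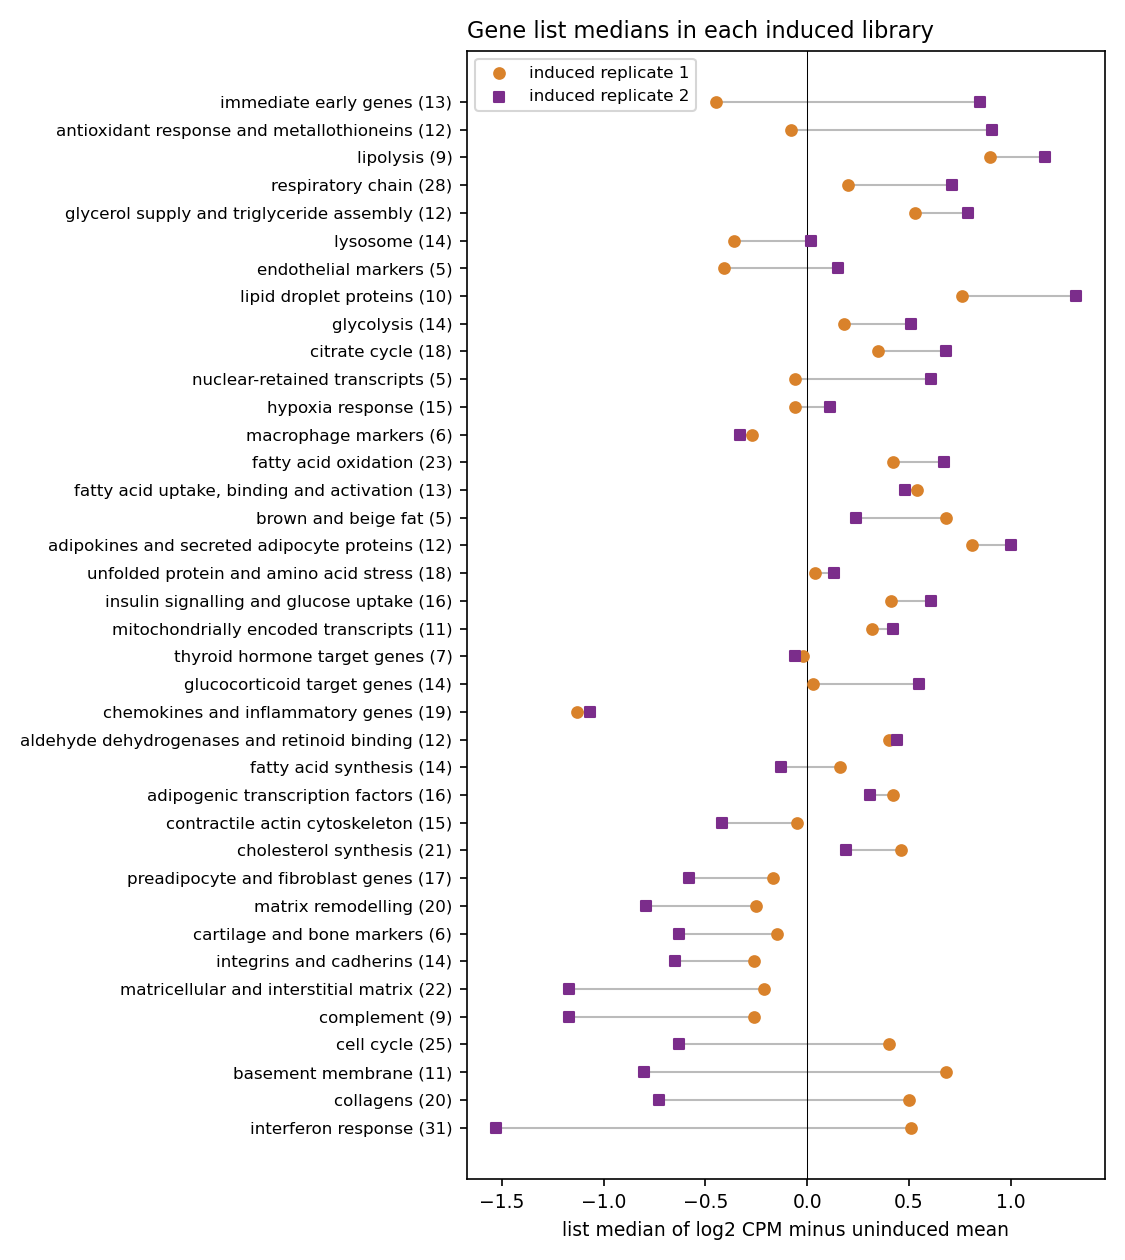
Median log2 CPM minus the uninduced mean in induced replicate 1 (orange circles) and replicate 2 (purple squares) for each gene list with 5 or more tested members, ordered by the difference between the libraries. Interferon genes stand at 0.51 and -1.53 and collagens at 0.50 and -0.73, while chemokine and inflammatory genes stand at -1.13 and -1.07.

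Genes of mitosis were also higher in induced replicate 1 than in replicate 2. Mki67, a marker of cycling cells, measured 58.3 and 32.4 CPM without induction and 78.6 and 18.5 CPM in induced replicates 1 and 2. Top2a, which untangles DNA at mitosis, measured 131 and 56.9 CPM without and 144 and 30.5 CPM with induction. The uninduced libraries themselves differed by a large factor for both, with replicate 1 the higher. Not every cell cycle gene had this order: Pcna, the polymerase clamp, stood at 87.6 and 81.3 CPM without and 63.4 and 144 CPM with induction, and the helicase gene Mcm4 at 80.7 and 68.6 CPM without and 61.5 and 60.8 CPM with induction. Of 25 cell cycle genes 0 were called in edgeR, DESeq2 or limma-voom, and 0 had an unadjusted p under 0.05 in edgeR, with medians of 0.40 in replicate 1 and -0.63 in replicate 2. For 16 of them replicate 1 was above and replicate 2 below both uninduced libraries, as for 17.2% of all genes.

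In the other direction replicate 2 held more of the immediate early and antioxidant genes. Hbegf, a growth factor of the EGF family, measured 13.9 and 12.1 CPM without induction and 3.66 and 37.3 CPM in induced replicates 1 and 2. The stress factor Atf3 measured 4.79 and 11.4 CPM without and 4.26 and 36.2 CPM with induction, and Gadd45b, a stress-induced growth regulator, 17.0 and 21.7 CPM without and 12.8 and 78.9 CPM with induction. Replicate 2 was far above the uninduced libraries in these 3 genes and replicate 1 below them. Ptgs2, the inducible cyclooxygenase, gave another order, with 74.2 and 80.1 CPM without induction and 10.5 and 75.5 CPM with it, so that replicate 1 alone stood far from the uninduced values. In Ier3, a survival gene induced by stress, replicate 1 also stood apart, at 68.7 and 66.8 CPM without and 11.8 and 82.3 CPM with induction. Of 13 immediate early genes 0 were called by any of the 3 tools. In edgeR 3 had an unadjusted p under 0.05, where 1896 of all 15255 genes did so. All 13 were higher in replicate 2 than in replicate 1, with medians of 0.85 and -0.45, as were 7501 of all 15255 genes. All 12 antioxidant genes tested were higher in replicate 2 as well, at medians of 0.91 and -0.08, with 0 called by any of the 3 tools and 1 at an unadjusted p under 0.05. Srxn1, which repairs oxidised peroxiredoxins, measured 118 and 161 CPM without and 106 and 392 CPM with induction, and the quinone reductase Nqo1 47.0 and 76.6 CPM without and 45.4 and 171 CPM with induction. Hmox1, which degrades haem, was above the uninduced libraries in both, at 217 and 300.2 CPM without and 337 and 699 CPM with induction.

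**Figure D4:**
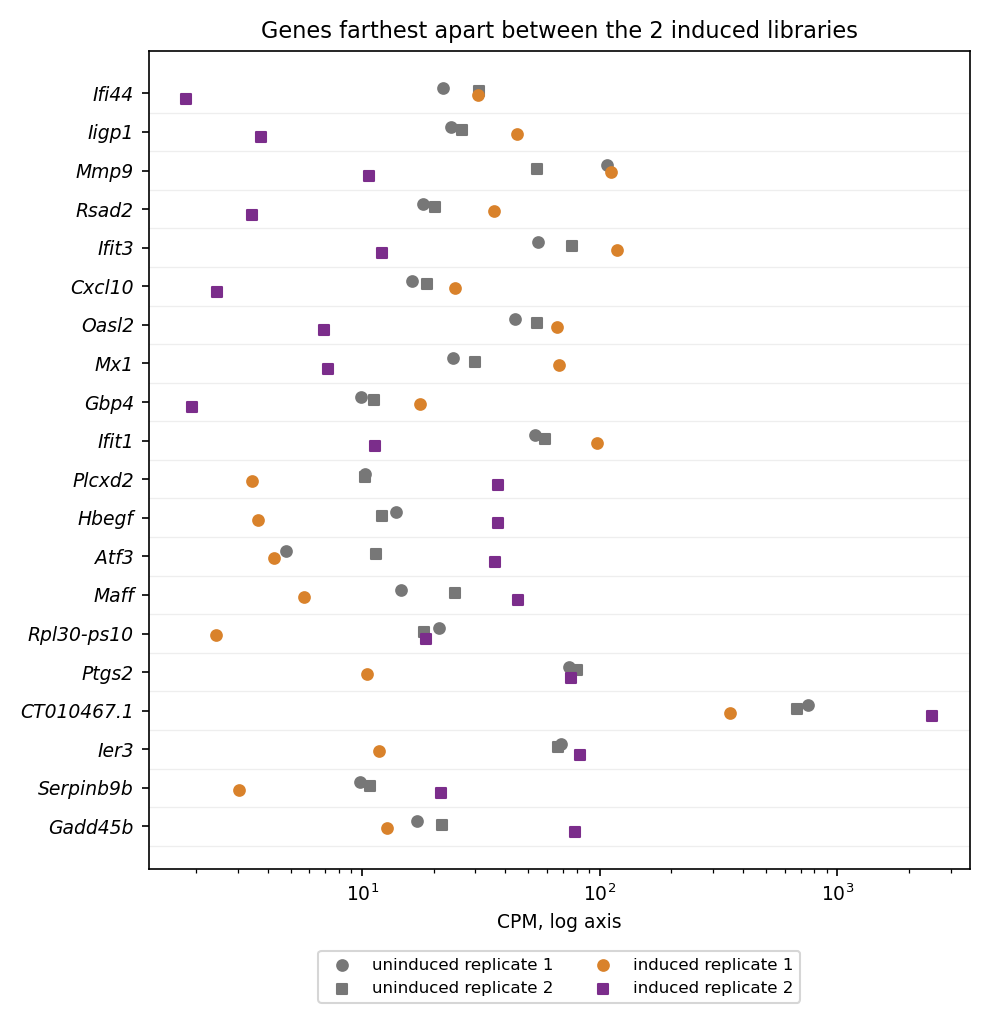
CPM (log axis) of the 10 genes lowest and the 10 highest in induced replicate 2 against replicate 1, in the 4 spheroid libraries (grey uninduced, orange and purple induced). The upper genes, such as Ifit1 (97.8 and 11.3 CPM), are low in replicate 2 only, whereas Ptgs2 (10.5 and 75.5 CPM) is low in replicate 1 only.

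In all, 681 genes (4.46%) were at least 2-fold higher in induced replicate 2 than in replicate 1 and 1478 (9.69%) at least 2-fold lower. Against the uninduced mean, replicate 1 had 561 genes (3.68%) at least 2-fold above and 423 (2.77%) below, and replicate 2 had 559 (3.66%) above and 1073 (7.03%) below. In 73 genes replicate 1 was 2-fold above and replicate 2 was 2-fold below the uninduced mean, and in 25 the reverse held. That count of 25 was 16 against uninduced replicate 1 alone.

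The difference between the induced libraries moved with gene length. By exonic length in GENCODE vM21, the median of replicate 2 minus replicate 1 (log2) was 0.19 in genes of up to 1782 bases and -0.27 in genes of 6975 bases and more. The same medians were 0.03 and -0.04 between the uninduced spheroid libraries and -0.04 and 0.01 between the induced flat libraries. Across 15217 genes Spearman's rho with length was -0.26 in induced and -0.10 in uninduced spheroids. Of the 20 collagens 13 were among the longest genes, and the median length of the list was 7648 bases against 3847 over all genes. Among the longest were also 7 of 11 basement membrane genes, but 1 of 28 respiratory chain genes, all of which were higher in replicate 2. Cell cycle genes, mostly lower in replicate 2, had 2 of 25 among the longest. Interferon genes were not long, with a median of 3614 bases and 4 of 31 among the longest, so the largest gap was in a list of average length. The part of gene length, and of the Gm26917 level given above, in these gaps was not tested.

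**Figure D5:**
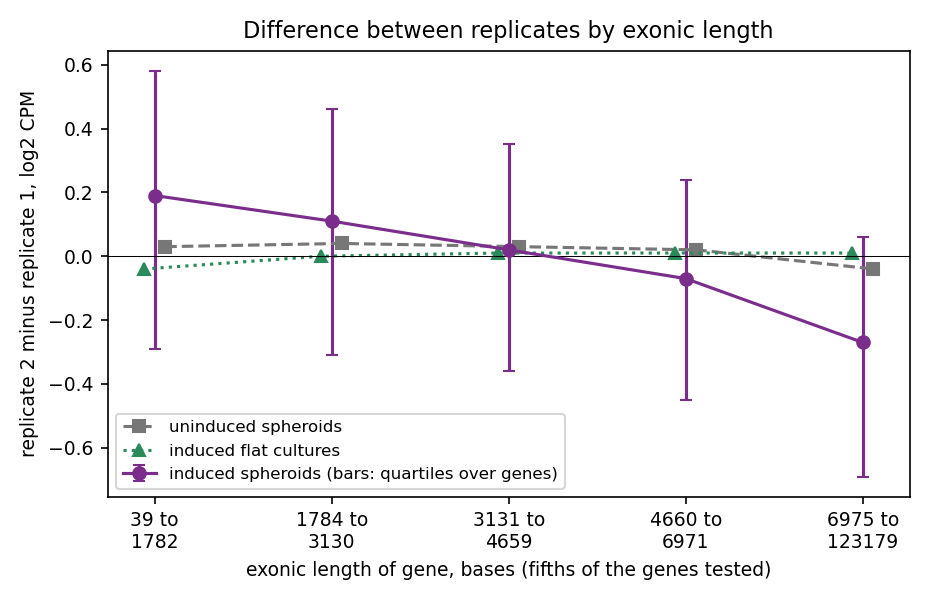
Median log2 CPM of replicate 2 minus replicate 1 in 5 equal groups of genes ordered by exonic length, for induced spheroids (purple, bars are quartiles over genes), uninduced spheroids (grey) and induced flat cultures (green). In induced spheroids the medians run from 0.19 in the shortest to -0.27 in the longest genes.

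Flat cultures given the same agents are set beside the spheroid response. Of 484 genes (3.17%) called higher by induction in flat culture, 83 were called higher in spheroids, which is 17.1% of the flat list and 93.3% of the spheroid list. Of 205 genes (1.34%) called lower, 24 were called lower in spheroids, or 11.7% and 48% of the lists. The calls share 1 estimate of spread per gene, so they are not independent. The 484 genes had a median log2 fold change of 1.74 in flat culture and 0.73 in spheroids, with 0.63 in induced replicate 1 and 0.84 in replicate 2. They were chosen by a flat change of at least 2-fold, which raises the flat median and not the spheroid one. These 2 medians therefore do not measure the difference between the responses. At least 2-fold above the uninduced mean were 154 of them in replicate 1 and 196 in replicate 2. The difference between the responses was tested as an interaction in edgeR, and the log2 change was smaller or more negative in spheroids for 52 genes (0.341%) and larger for 6 (0.0393%). Acsl1 rose by less in spheroids (interaction -3.96 ± 0.29 log2, adjusted p = 0.00316), as did Cebpa (-2.46 ± 0.18, adjusted p = 0.00316). Saa3 fell by more in spheroids (-2.01 ± 0.20, adjusted p = 0.0131). The 52 became 1 to 9 without any 1 flat or uninduced spheroid library, 409 without induced replicate 1 and 311 without induced replicate 2. The 6 became 0 without any 1 flat or uninduced spheroid library, 177 without induced replicate 1 and 375 without induced replicate 2.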

How the data were processed

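RNA was measured in 2 libraries per group with a directional kit. The authors deposited raw read counts per Ensembl gene, whole numbers with no normalization. The submitters' processing notes name featureCounts 1.6.3 and HISAT2 2.1.0 with build mm10, after Trimmomatic 0.38 and FastQC 0.11.7. Neither the strand setting nor the annotation release is stated in the labels or notes. Columns of counts were matched to samples through the column names in the sample descriptions. Of 49585 genes 49326 had a symbol. Genes without one, which held 0.0318 to 0.0338% of spheroid counts, stayed in the tests under their Ensembl identifiers and were left out of the naming only.

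The tools were DESeq2 1.42.0, limma 3.58.1 and edgeR 4.0.16 in R 4.3.3. filterByExpr (minimum count 10) left 15255 genes, and TMM scaled the libraries. The edgeR quasi-likelihood model (robust, 1 mean per group, all 8 libraries, 4 residual degrees of freedom) gave two-sided p-values with Benjamini-Hochberg adjustment over all genes tested. The model gives every group 1 spread per gene, whereas the induced spheroids varied more than the other groups (0.327 against 0.0469 to 0.111, biological coefficient of variation), so p-values of this comparison can be too small. The standard error of a log2 fold change is its size over the root of its F value. Thresholds follow the series description. Single-library differences use log2 CPM with a prior count of 2. With 2 against 2 libraries an exact two-sided permutation test cannot give a p under 0.333, so none is used. Intervals of ratios are exact and cover counting error only, and reads without molecular identifiers are not independent molecules.

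Genes were named by rule: the 12 largest called increases and decreases with mean log2 CPM of at least 1 and groups apart, 19 key genes, up to 4 members with the smallest adjusted p from each of 40 lists, and the 10 genes farthest apart in each direction between the induced libraries at mean log2 CPM of at least 3. Other named genes, for example Gm26917, Plin2, Ccl2 and Pdgfra, were picked with their values in view. Some genes that the rule selects are not reported here. The members and lists were chosen with earlier results of these data known, so no pattern is independent support. Alternatives were RLE scaling, no filter, a minimum count of 30, DESeq2, limma-voom with group weights, a replicate block, the 4 spheroid libraries alone, a prior count of 0.5 and each library left out. Gene positions and exonic lengths are from GENCODE vM21 (mm10) and promoter windows from RefSeq (GRCm38.p6), which matched 24 of 31 interferon, 55 of 89 higher and 34 of 50 lower genes.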

Additional observations from a re-analysis of the deposited data

Results flagged for a closer look

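The response to induction differed between spheroids and flat cultures by the interaction term of the edgeR model, at an adjusted p under 0.05 and at least 2-fold, for 58 of 15255 genes. The change was smaller or more negative in spheroids for 52 of them and larger for 6. Among the genes named here, Plin1 (the droplet coat, interaction -8.69 ± 0.46 log2, adjusted p = 0.00139) and Gpd1 (glycerol supply, -6.01 ± 0.68, adjusted p = 0.0208) differed. The flat uninduced libraries held 1 count of Plin1 between them, so its size depends on the prior count and is no bound. Acsl1, which activates fatty acids, differed by -3.96 ± 0.29 (adjusted p = 0.00316), the lipase Lipe by -3.10 ± 0.33 (adjusted p = 0.0174), the transcription factor Cebpa by -2.46 ± 0.18 (adjusted p = 0.00316) and the desaturase Scd1 by -2.17 ± 0.14 (adjusted p = 0.00316). Angiotensinogen, Agt, differed by -1.75 ± 0.19 (adjusted p = 0.0174) and pyruvate carboxylase, Pcx, by -1.27 ± 0.18 (adjusted p = 0.0379). For the acute-phase gene Saa3 the interaction was -2.01 ± 0.20 (adjusted p = 0.0131), and here the decrease was the larger in spheroids. Each value is the spheroid minus the flat log2 fold change. Groups of 2 samples are too small for a check on single outlying values.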

How the results depend on the processing

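The 89 higher and 50 lower calls became 175 and 161 with no low-count filter, 131 and 110 with DESeq2, 59 and 29 with limma-voom and 0 and 0 in the 4 spheroid libraries alone. The share of higher calls was 64% in the reported fit and 52.1%, 54.4% and 37% with no filter, with DESeq2 and without 3D induced replicate 1. With 1 library left out the calls ranged from 13 to 453 higher and from 11 to 772 lower. The 52 smaller interactions became 164 with no filter, 139 with DESeq2, 99 with limma-voom and 1 to 409 with 1 library left out. The 6 larger ones became 45, 24 with DESeq2, 2 with the replicate block and 0 to 375 with 1 library left out. Genes 2-fold below in induced replicate 1 and 2-fold above in replicate 2 numbered 25, or 43 with a prior count of 0.5 and 16 to 26 with 1 uninduced library left out. Without 3D induced replicate 2 the change of Col1a1 reversed to 0.43 and that of Acta2 to 0.39 (adjusted p = 0.0366 and 0.045), and without 3D induced replicate 1 they were -1.52 and -1.41. RLE scaling and a minimum count of 30 gave 82 to 85 higher and 53 lower. The replicate block gave 73 higher and 41 lower calls, 72 and 37 of them shared with the reported fit. Deviations of same-numbered libraries from their group means correlated at 0.21 between the spheroid groups and at -0.01 to 0.03 otherwise. Whether the numbers pair the spheroid samples was not tested. The cause of these shifts was not tested beyond the fewer libraries or the other gene set that a setting implies. Depth limits genes with few uninduced counts, such as Adipoq, Thrsp and Slc2a4, whose folds are bounds or have wide intervals.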

Other observations

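Genes of retinaldehyde metabolism also moved with induction. Aldh1a1, which oxidises retinaldehyde to retinoic acid, measured 0.148 and 0.364 CPM in uninduced spheroids and 3.86 and 3.63 CPM in induced replicates 1 and 2 (log2 fold change 3.82 ± 0.32, SE, adjusted p = 0.00267). Aldh1a7, its close paralog, had 1 count in each uninduced library and 154 and 475 counts in the induced ones, a ratio of 270 with a counting interval of 74.3 to 2230 (adjusted p = 0.00543). Reads of this pair could be split uncertainly. In both genes the groups did not overlap. Of 12 genes of this list tested 2 were called higher, with a median of 0.56. Without 1 uninduced spheroid library the adjusted p was 0.13 for Aldh1a7.

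Ctsl, a lysosomal cysteine protease, fell from 1682 and 1381 to 579 and 801 CPM (-1.15 ± 0.18, adjusted p = 0.0305, and 0.249 without uninduced replicate 1), and it was the only one of 14 lysosomal genes called. Its change was -0.93 (log2), under 2-fold, without induced replicate 1. Cathepsin B (Ctsb) stood at 1377 and 1536 CPM without and 877 and 1185 CPM with induction, both below the uninduced values (adjusted p = 0.236). Lamp1, a lysosomal membrane protein, stood at 1732 and 2008 CPM without and 1298 and 1862 CPM with induction (adjusted p = 0.689), with replicate 2 between the uninduced values. Cholesterol synthesis had 0 of 21 genes called in edgeR, DESeq2 or limma-voom, with a median of 0.30. An unadjusted p under 0.05 in edgeR was found for 8 of the 21, and for 1896 of all 15255 genes. Hmgcs1, an early enzyme of that pathway, stood at 39.5 and 48.9 CPM without and 78.5 and 73.1 CPM with induction and passed the p threshold but not the fold threshold (0.78 ± 0.13, adjusted p = 0.0332). By the same 3 tools 0 were called of 18 unfolded protein and amino acid stress genes (median 0.09, 3 at an unadjusted p under 0.05 in edgeR) and of 11 mitochondrially encoded transcripts (0.38, 6 at such a p). Of 5 brown and beige fat genes tested 0 were called by these tools and 3 had such a p, and Ucp1, the uncoupling protein of brown fat, had 1 count over the 4 spheroid libraries.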
